A study of Arabidopsis thaliana with 119 samples.

Results

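Chlorophyll breakdown and its control in leaf senescence were followed in Arabidopsis thaliana through 10 genes, taken by gene ID from a table of 32833 genes. The members were the magnesium dechelatases NYE1 (AT4G22920) and NYE2 (AT4G11910), the chlorophyll b reductase subunits NYC1 (AT4G13250) and NOL (AT5G04900), the hydroxymethyl chlorophyll a reductase HCAR (AT1G04620), the pheophytinase PPH (AT5G13800), the ring-opening oxygenase PAO (AT3G44880), the catabolite reductase RCCR (AT4G37000), and the NAC transcription factors ORE1 (AT5G39610) and NAP (AT1G69490). All 10 members passed the filter on low counts, as did 20025 of the genes in the table. Their choice used no measured value of these libraries, but was made with earlier results of the same data known.

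RNA-seq was run on rosettes of the inbred lines Sha, Tsu-0, Cvi-0, Col-0 and Bur-0, 5 natural accessions with no transgene named in the labels, under 4 regimes of water and nitrate. In the control (W+N+) a plant was given 160.45 ± 7.96 ml of solution at 5 mM nitrate. Drought (W-N+) cut the volume to 50.85 ± 4.67 ml at an equal concentration. Nitrogen deficiency (W+N-) kept the volume, at 161.93 ± 11.07 ml, and lowered nitrate to 0.5 mM. Combined stress (W-N-) used 50.70 ± 4.10 ml at 1.5 mM. The labels do not say what kind of error these volumes carry. Volume times concentration came to 802.2 µmol of nitrate in W+N+, 254.2 µmol in W-N+, 80.96 µmol in W+N- and 76.05 µmol in W-N-, so that drought plants also received less nitrate, and water and nitrate supply cannot be told apart in that contrast. Days had 8 h of light, the automated Phenoscope platform rotated and watered the pots for 23 days, and harvest was at 31 days. Of the 20 groups of accession and treatment, 19 had 6 libraries and Bur-0 controls had 5. Whether libraries of a group are separate plants is not stated, and p-values therefore reflect only how these libraries vary, which may be technical.

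Chlorophyll is dismantled in steps. Chlorophyll b is first reduced to chlorophyll a by NYC1, NOL and HCAR, the central magnesium is removed by NYE1 and NYE2, the phytol tail is cut by PPH, the ring is opened by PAO, and the red product is reduced by RCCR to a colourless one. In leaves that senesce, this pathway releases the chlorophyll-binding proteins for breakdown, and much of their nitrogen is moved to other organs. ORE1 and NAP promote leaf senescence and are known to act on genes of this pathway.

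Depth was between 9698708 and 110420763 counts a library (median 17998283). Leaf markers (RBCS1A, LHCB1.1, CA1 and RCA) summed to between 17900 and 106000 CPM (counts scaled to a common library size) in the libraries, 7 flower markers to between 0.214 and 10.9 CPM, and 5 root markers to between 0 and 1.17 CPM. Tsu-0 W+N- d, Cvi-0 W+N+ c, Bur-0 W-N- c and Col-0 W+N+ f, named by replicate letter, stood far from their groups, with a root mean square deviation above 0.6 on the log2 scale. Sample titles also carry an experiment code, P3ID33 in 60 libraries and P3ID34 in 59, whose meaning is not stated; it was a term of every fit.

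Control levels spanned a wide range, with NYC1, RCCR, PAO and PPH at the top and NAP, ORE1 and NYE2 at the bottom. Per kilobase of transcript, the mean control level was 48.3 CPM for NYC1, 43.1 for RCCR, 39.4 for PAO, 30.7 for PPH, 17.2 for NOL, 11.8 for NYE1, 9.01 for HCAR, 2.95 for NAP, 1.74 for ORE1 and 1.30 for NYE2. Counting error weighed most on ORE1 and NYE2, whose counts per library began at 4 and 7. PAO overlaps AT3G44870 by 11 bases and RCCR overlaps AT4G37010 by 167 bases on the same strand in the TAIR10.1 annotation, so reads there could go to either gene and both values carry that uncertainty.

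Nitrogen deficiency raised most steps of the pathway together with both NAC factors. Averaged over accessions, 8 of 10 members were higher, where 36.6% of all tested genes were higher, and only HCAR was lower, where 31.4% of genes were. NYE2 was 3.94-fold higher than in control (log2 fold change 1.98 ± 0.09 SE), NYE1 2.33-fold (1.22 ± 0.06), ORE1 2.32-fold (1.21 ± 0.11), NAP 2.31-fold (1.21 ± 0.11) and PPH 2.14-fold (1.097 ± 0.04). NOL was not called, at -0.05 ± 0.03. The median log2 fold change of the members was 0.81, against 0.05 over all tested genes. The summed level of the leaf markers fell alongside, from a median of 51580 CPM in W+N+ to 31910 CPM in W+N-, and its part in these values was not tested; in whole rosettes, fewer cells of a type and less RNA per cell cannot be told apart.

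Combined stress moved the same members in the same directions, several by less and HCAR by more. Of the members, 8 were higher against 30.6% of all genes, and HCAR was lower against 26.6%. NYE2 was 2.47-fold higher than in control (1.30 ± 0.09), ORE1 2.17-fold (1.12 ± 0.11), NAP 2.10-fold (1.07 ± 0.11), PPH 1.71-fold (0.77 ± 0.04) and NYE1 1.52-fold (0.60 ± 0.06). The members' median was 0.48, against 0.03 over all genes. The leaf marker sum was lower here too, at a median of 36050 CPM in W-N-, and its part was not tested. Set directly against nitrogen deficiency, 0 members were higher and 6 were lower, where 19.6% of genes were higher and 21.2% lower. Those 6 were NYE2 (-0.67 ± 0.08), NYE1 (-0.62 ± 0.06), PPH (-0.32 ± 0.04), NYC1 (-0.16 ± 0.03), HCAR (-0.14 ± 0.04) and RCCR (-0.10 ± 0.04), of which RCCR was not called within P3ID33 alone (adjusted p = 0.404). For HCAR this was a larger fall from control (-0.51 ± 0.04 against -0.36 ± 0.04 in nitrogen deficiency), while the others of the 6 lay nearer to control. ORE1, at -0.10 ± 0.10, and NAP, at -0.14 ± 0.10, were not called. Plants of W+N- and W-N- received similar amounts of nitrate but differed in both water and nitrate strength.

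Drought alone gave small changes. Of the members, 7 were higher and 1 lower, where 10.6% of genes were higher and 13.1% lower. ORE1 was 1.53-fold higher (0.62 ± 0.11), NAP 1.32-fold (0.40 ± 0.11), NYE2 1.23-fold (0.30 ± 0.10) and PPH 1.15-fold (0.20 ± 0.04). NYC1 (0.16 ± 0.03), NOL (0.10 ± 0.03) and RCCR (0.10 ± 0.04) were higher by still less. HCAR was 1.19-fold lower (-0.25 ± 0.04). NYE1, at 0.11 ± 0.06, and PAO, at 0.08 ± 0.03, were not called. Within P3ID33 alone 5 members were called, among 2318 genes, and within P3ID34 alone 5, among 2456 genes. The call of NOL was lost without the libraries far from their groups (adjusted p = 0.0727). It was also lost within P3ID34 alone (adjusted p = 0.264) and without replicate b (0.0760) or f (0.0992). NYE2 was not called within P3ID33 alone (adjusted p = 0.464) or without replicate a (0.0820) or b (0.0606). Without the code as a term, ORE1 (adjusted p = 0.111), NAP (0.187) and RCCR (0.0906) were not called in drought. RCCR was also not called within P3ID33 alone (adjusted p = 0.0902), within P3ID34 alone (0.309) or without replicate a (0.187) or e (0.0889).

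Against drought, combined stress had 8 members higher and 1 lower, where 25.1% of genes were higher and 20.9% lower. NYE2 was 2.00-fold higher (1.00 ± 0.09), NAP 1.59-fold (0.67 ± 0.10), PPH 1.49-fold (0.57 ± 0.04) and ORE1 1.42-fold (0.50 ± 0.10). ORE1 was not called there without the code as a term (adjusted p = 0.165). The effect of combined stress was also set against the sum of the drought and nitrogen deficiency effects on the log2 scale. It fell below that sum for 7 members and above it for 0, where 14.8% of genes fell below and 15.3% above. The shortfall was -0.98 ± 0.13 for NYE2, -0.73 ± 0.08 for NYE1, -0.71 ± 0.14 for ORE1, -0.54 ± 0.15 for NAP, -0.53 ± 0.06 for PPH, -0.32 ± 0.04 for NYC1 and -0.20 ± 0.05 for RCCR. The shortfall of ORE1 was not called within P3ID33 alone (-0.43 ± 0.23, adjusted p = 0.230), nor that of RCCR (adjusted p = 0.0594), and without the code as a term those of ORE1 (0.149) and NAP (0.136) were not called. HCAR lay above the sum without a call (0.11 ± 0.05). It was called there without the libraries far from their groups (0.15 ± 0.05, adjusted p = 0.0236). These contrasts share control libraries and the nitrate amounts were not a full factorial.

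**Figure D1:**
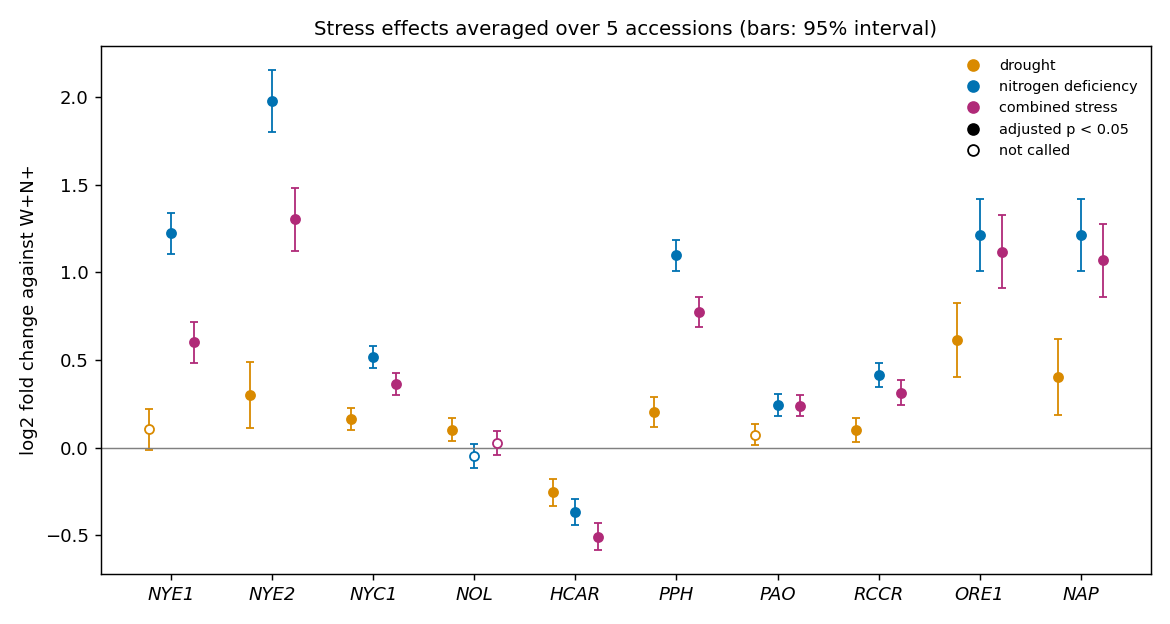
Log2 fold change against control (y axis) of the 10 members in drought, nitrogen deficiency and combined stress, averaged over 5 accessions; points are estimates, bars 95% intervals, and open points were not called at an adjusted p below 0.05. NYE2 lies highest in nitrogen deficiency, at 1.98, HCAR lies below 0 in all stresses, and NOL stays near 0.

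The magnesium dechelatase NYE1 separated nitrogen-deficient from control libraries in every accession except Col-0. Here and below, how many of all genes had ranges that stood apart was not counted. Within accessions, 38.3% (Sha) to 50.8% (Tsu-0) of all genes were called in nitrogen deficiency. In Tsu-0 its level ran from 15.3 to 20.7 CPM in control (median 18.1) and from 48.5 to 94.2 CPM in nitrogen deficiency (median 53.5). In Bur-0 it ran from 13.4 to 19.5 CPM (median 16.8) and from 34.3 to 48.4 CPM (median 41.3), and in Cvi-0 from 21.5 to 29.2 CPM (median 24.4) and from 40.0 to 61.6 CPM (median 53.1). Nitrogen deficiency thus left a gap between the ranges in these accessions, and the same held in Sha, where control libraries lay between 16.7 and 20.8 CPM and nitrogen-deficient ones between 24.6 and 59.7 CPM.

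The Col-0 ranges met because of 1 control library. Col-0 control libraries lay between 19.8 and 38.7 CPM (median 20.6) and nitrogen-deficient ones between 31.6 and 48.1 CPM (median 40.6). The highest control value belonged to Col-0 W+N+ f, a library far from its group. The NYE1 rise in Col-0 was 0.73 ± 0.13, and 0.91 ± 0.11 without the libraries far from their groups.

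Under combined stress NYE1 rose in Bur-0 (0.95 ± 0.14), Cvi-0 (0.61 ± 0.13) and Tsu-0 (1.09 ± 0.13). It was not called in Col-0 (0.19 ± 0.13) or Sha (0.16 ± 0.13). Sha libraries lay between 17.8 and 23.8 CPM under combined stress, which overlaps the control range given above, while Tsu-0 libraries lay between 31.6 and 43.6 CPM, all above their controls. The Col-0 value was called, at 0.35, without the libraries far from their groups (adjusted p = 0.0129).

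NYE2, the close homologue of NYE1, was scarce in control and had the highest fold change of the members in nitrogen deficiency. In Cvi-0 it ran from 1.69 to 2.99 CPM in control (median 1.90) and from 11.3 to 16.5 CPM in nitrogen deficiency (median 12.8), a 6.17-fold rise (2.62 ± 0.19). In Tsu-0 it ran from 1.55 to 3.50 CPM (median 2.03) and from 8.95 to 14.4 CPM (median 11.3), a 4.98-fold rise. Bur-0 rose 4.66-fold, from a control range of 1.15 to 1.83 CPM to one of 5.01 to 8.94 CPM, so that in these 3 accessions the ranges stood well apart.

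Col-0 and Sha reached lower NYE2 levels. Col-0 rose 2.10-fold in nitrogen deficiency, with ranges of 0.693 to 2.17 CPM and 2.03 to 4.11 CPM that met at their ends. Sha rose 3.14-fold, but its nitrogen-deficient libraries were split: 4 lay between 4.16 and 5.37 CPM, while Sha W+N- e and f, both P3ID33, lay at 1.46 and 1.41 CPM, within the control range of 0.820 to 1.47 CPM. The remaining P3ID33 library, b, lay at 4.33 CPM. Under combined stress NYE2 rose in all 5 accessions, 3.71-fold in Bur-0, 3.43-fold in Tsu-0, 3.13-fold in Cvi-0, 1.56-fold in Sha and 1.47-fold in Col-0.

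Among the members, PPH, the enzyme that removes phytol, showed the clearest separation of groups in nitrogen deficiency. Nitrogen-deficient libraries lay above control libraries in each accession. In Tsu-0 control libraries ran from 58.3 to 74.5 CPM (median 62.2) and nitrogen-deficient ones from 126.5 to 264.7 CPM (median 173.6). In Col-0 they ran from 60.1 to 91.4 CPM (median 72.4) and from 113.6 to 150.6 CPM (median 134.2), and in Sha from 57.3 to 84.8 CPM (median 63.2) and from 87.1 to 138.2 CPM (median 122.5). Bur-0 went from at most 65.8 CPM to at least 113.0 CPM, and Cvi-0 from at most 72.6 CPM to at least 125.1 CPM.

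PPH rose 2.79-fold in Tsu-0, 2.36-fold in Bur-0, 2.06-fold in Cvi-0, 1.84-fold in Col-0 and 1.80-fold in Sha in nitrogen deficiency. Under combined stress it rose in each accession too, by 1.27 ± 0.10 on the log2 scale in Tsu-0, 1.06 ± 0.10 in Bur-0, 0.63 ± 0.10 in Cvi-0, 0.49 ± 0.10 in Col-0 and 0.42 ± 0.10 in Sha. The Sha ranges overlapped there, at 57.3 to 84.8 CPM in control and 81.0 to 109.1 CPM under combined stress.

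**Figure D2:**
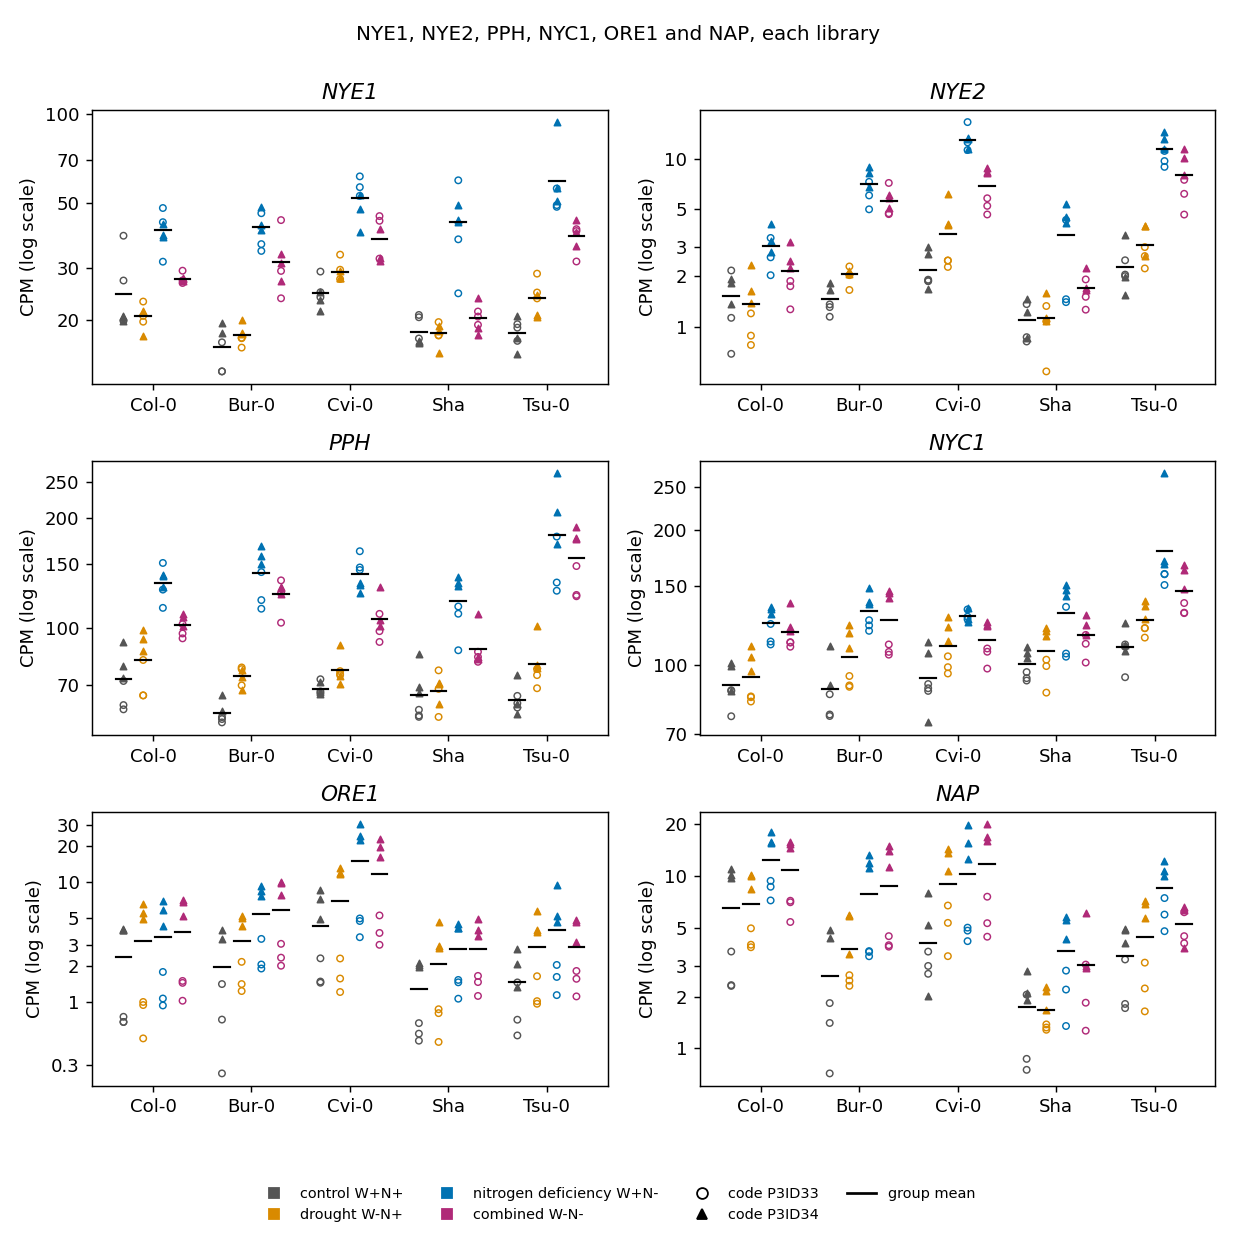
CPM on a log axis (y) of NYE1, NYE2, PPH, NYC1, ORE1 and NAP in each library, by accession (x) and treatment (colour); open circles are code P3ID33, filled triangles P3ID34, and lines are group means. In Tsu-0, PPH lies at 58.3 to 74.5 CPM in control and 126.5 to 264.7 CPM in nitrogen deficiency, while ORE1 and NAP split by code within groups.

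Of the genes that convert chlorophyll b to chlorophyll a, NYC1 rose, NOL did not pass the test in nitrogen deficiency or combined stress, and HCAR fell. NYC1, a subunit of chlorophyll b reductase, was 1.43-fold higher in nitrogen deficiency (0.52 ± 0.03) and 1.28-fold higher under combined stress (0.36 ± 0.03). In Tsu-0 it ran from 93.7 to 123.7 CPM in control (median 110.1) and from 150.9 to 269.0 CPM in nitrogen deficiency (median 163.8), with a gap between the ranges. Sha was the accession whose ranges overlapped in nitrogen deficiency, at 92.1 to 109.3 CPM and 104.2 to 150.9 CPM.

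NOL, which pairs with NYC1 in chlorophyll b reductase, stayed between 17.4 and 34.05 CPM in all libraries. Its mean was 24.0 ± 2.82 CPM in W+N+ (SD, n = 29), 25.9 ± 3.37 in W-N+ (n = 30), 23.4 ± 2.56 in W+N- (n = 30) and 24.6 ± 2.71 in W-N- (n = 30). No accession gave a call for NOL in any stress, and the ranges overlapped in each. Its 95% interval in nitrogen deficiency ran from -0.11 to 0.02 on the log2 scale and under combined stress from -0.04 to 0.10.

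HCAR, the next enzyme after chlorophyll b reductase, was the member that fell. It was 1.29-fold lower in nitrogen deficiency (-0.36 ± 0.04) and 1.42-fold lower under combined stress (-0.51 ± 0.04). In Bur-0 it ran from 12.97 to 18.7 CPM in control (median 17.4) and from 8.71 to 11.5 CPM under combined stress (median 10.7), and in Col-0 from 19.7 to 28.8 CPM (median 23.1) and from 11.6 to 18.7 CPM (median 16.1). Combined-stress libraries thus lay below control libraries in both accessions, while the ranges overlapped in Cvi-0, Sha and Tsu-0. HCAR fell under combined stress in each accession, by 0.63 in Col-0, 0.61 in Sha, 0.57 in Bur-0, 0.46 in Tsu-0 and 0.26 in Cvi-0 on the log2 scale.

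PAO, which opens the ring, changed little, and RCCR, which acts after it, rose by more. PAO was 1.18-fold higher both in nitrogen deficiency (0.24 ± 0.03) and under combined stress (0.24 ± 0.03). Cvi-0 libraries ran from 76.9 to 97.7 CPM in control (median 95.4) and from 107.0 to 128.6 CPM in nitrogen deficiency (median 120.5), without overlap, whereas in Col-0 the ranges of 76.9 to 111.8 CPM and 91.3 to 105.5 CPM lay over each other. RCCR was 1.33-fold higher in nitrogen deficiency (0.41 ± 0.04) and 1.24-fold higher under combined stress (0.31 ± 0.04). In Tsu-0 it ran from 45.6 to 56.6 CPM in control (median 49.6) and from 65.6 to 80.0 CPM in nitrogen deficiency (median 73.3), again without overlap. The RCCR ranges stood apart in Bur-0 too, but overlapped in Col-0, Cvi-0 and Sha, although RCCR was called in each accession. Under combined stress both genes were called in 3 of 5 accessions. RCCR was not called in Cvi-0 or Sha there, and PAO was not called in Col-0 or Sha.

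**Figure D3:**
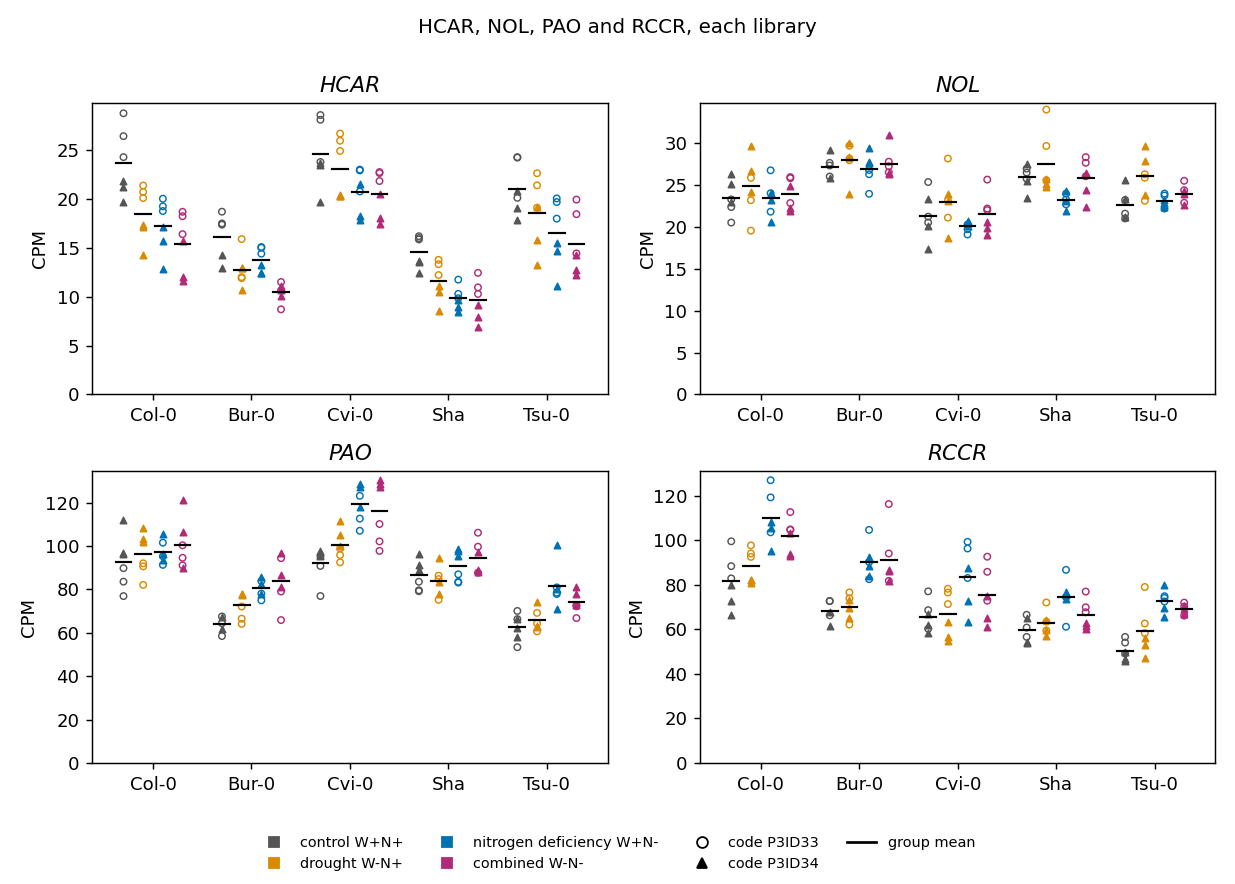
CPM (y axis, from 0) of HCAR, NOL, PAO and RCCR in each library, by accession (x) and treatment (colour); open circles are code P3ID33, filled triangles P3ID34, and lines are group means. HCAR is lower in W-N- than in W+N+, as in Bur-0 (8.71 to 11.5 against 12.97 to 18.7 CPM), and NOL stays between 17.4 and 34.05 CPM.

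The NAC factors rose in nitrogen deficiency and under combined stress in each accession, but their levels also depended on the experiment code. ORE1 in control ran from 0.256 to 2.32 CPM (median 0.715, n = 15) in P3ID33 and from 1.35 to 8.58 CPM (median 3.66, n = 14) in P3ID34. In nitrogen deficiency it ran from 0.939 to 4.97 CPM (median 1.78, n = 15) in P3ID33 and from 4.10 to 30.3 CPM (median 6.98, n = 15) in P3ID34. The control median of P3ID34 thus lay above the nitrogen-deficient median of P3ID33. Pooled over accessions, the ranges of the codes overlapped within both treatments. Within each single accession they stood apart in nitrogen deficiency, as in Tsu-0 (1.15 to 2.04 CPM in P3ID33, 4.61 to 9.46 CPM in P3ID34). In control the codes overlapped in Tsu-0 only (0.529 to 1.46 CPM and 1.35 to 2.79 CPM).

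The test of the code itself was chosen after the data were seen. ORE1 was 4.14-fold higher in P3ID34 (2.05 ± 0.07, higher in 20 of 20 groups) and NAP 2.33-fold (1.22 ± 0.07, 20 of 20 groups). Across the members 6 were higher and 2 lower in P3ID34, where 20.4% of genes were higher and 21.3% lower. NYE2 (0.44 ± 0.06), NYC1 (0.24 ± 0.02), PPH (0.18 ± 0.03) and PAO (0.12 ± 0.02) were the others that were higher, HCAR (-0.31 ± 0.03) and RCCR (-0.17 ± 0.03) were lower, and NYE1 (-0.04 ± 0.04) and NOL (-0.02 ± 0.02) were not called. Of the total sum of squares in log2 CPM, the code held 56.02% for ORE1, 30% for NAP, 16.3% for NYC1 and 0.0583% for NYE1.

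Stress effects within a code were close to the pooled ones in nitrogen deficiency. ORE1 rose by 1.16 ± 0.17 within P3ID33 and by 1.251 ± 0.11 within P3ID34, and NAP by 1.18 ± 0.14 and 1.24 ± 0.12. Under combined stress ORE1 rose by 1.14 ± 0.17 and 1.102 ± 0.11. The drought effect of ORE1 was called within P3ID34 (0.72 ± 0.11) and not within P3ID33 (0.41 ± 0.18), and that of NAP was called within P3ID33 (0.53 ± 0.14) and not within P3ID34 (0.35 ± 0.13).

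NAP in control ran from 0.717 to 3.65 CPM (median 2.05, n = 15) in P3ID33 and from 1.90 to 11.02 CPM (median 4.89, n = 14) in P3ID34. In nitrogen deficiency the ranges were 1.35 to 9.39 CPM (median 4.79, n = 15) and 4.31 to 19.7 CPM (median 12.2, n = 15). NAP was the member with a drought change in Cvi-0 of over 2-fold, at 2.10-fold (1.07 ± 0.22), and it was 1.79-fold there without the libraries far from their groups.

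**Figure D4:**
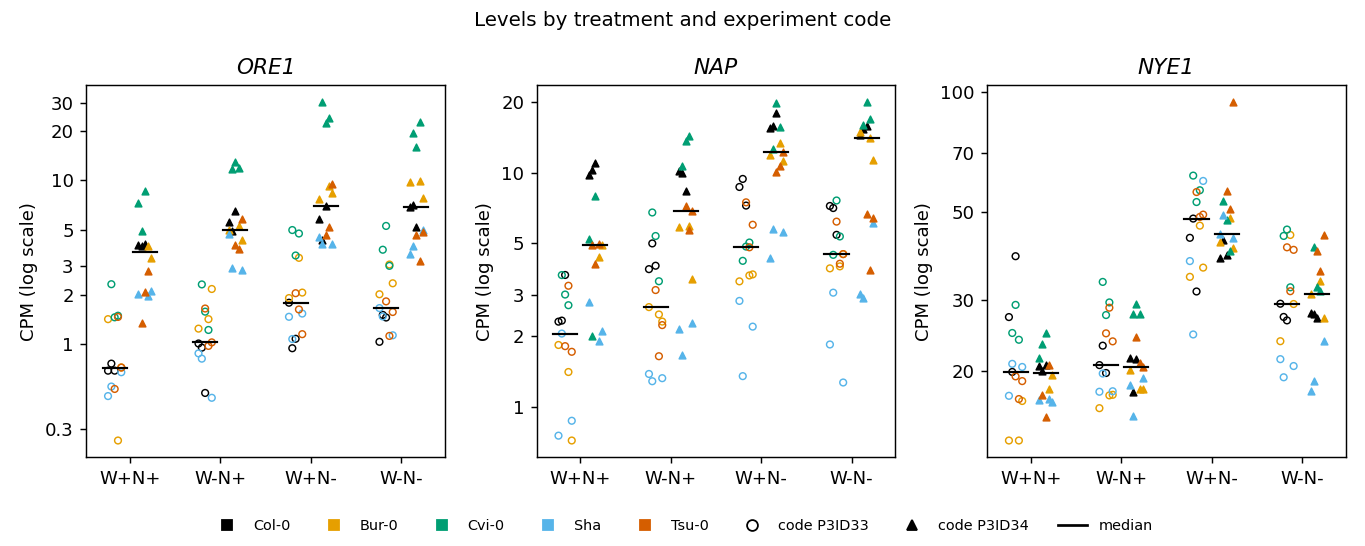
CPM on a log axis (y) of ORE1, NAP and NYE1 by treatment and experiment code (x); open circles are P3ID33 libraries, filled triangles P3ID34 libraries, colours are accessions and lines are medians. Median ORE1 in control is 0.715 CPM in P3ID33 and 3.66 CPM in P3ID34, while NYE1 shows no such split.

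Accessions differed in how far they raised the dechelatases and PPH. In nitrogen deficiency the size of the change differed between accessions for 4 members, where 16.1% of genes did: NYE2 (adjusted p = 0.000107), NYE1 (adjusted p = 0.000722), PPH (adjusted p = 0.00105) and PAO (adjusted p = 0.0115). NYE1 rose by 1.71 ± 0.13 in Tsu-0, 1.35 ± 0.14 in Bur-0, 1.24 ± 0.13 in Sha, 1.08 ± 0.13 in Cvi-0 and 0.73 ± 0.13 in Col-0. Both ends drew on libraries far from their groups. Without those libraries the order of accessions was the same but the span was narrower, from 1.53 ± 0.11 in Tsu-0 to 0.91 ± 0.11 in Col-0. PAO rose in Cvi-0 (0.38 ± 0.07), Tsu-0 (0.38 ± 0.07) and Bur-0 (0.32 ± 0.07), and was not called in Col-0 (0.07 ± 0.07) or Sha (0.07 ± 0.07).

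Of these differences in nitrogen deficiency, those of NYE1, PPH and PAO were not called within each code alone, where fewer libraries entered the fit. Within P3ID33 alone NYE2 was called (adjusted p = 0.0266) and NYE1 (0.148), PPH (0.454) and PAO (0.465) were not. Within P3ID34 alone 4 members were called, as many as with both codes. They included NYE2 (adjusted p = 0.0234), NYE1 (0.0113) and PPH (0.00113), while PAO (0.0685) was not called. The call of PAO was also lost without any 1 of the replicate letters a to e, with adjusted p from 0.0510 to 0.0967.

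Under combined stress the change differed between accessions for 3 members, where 13.5% of genes differed: PPH (adjusted p = 5.68e-07), NYE1 (adjusted p = 4.00e-05) and NYE2 (adjusted p = 0.000119). Bur-0 and Tsu-0 had the highest rises of these genes and Col-0 and Sha the lowest, with Cvi-0 close to the former for NYE2 (1.65 ± 0.19) and between them for PPH and NYE1. The calls of these 3 genes stood within each code. In drought 0 members differed between accessions by edgeR, DESeq2 or limma voom, where 0.619% of genes did by edgeR, and NYE1 and NAP were the 2 members with an unadjusted p under 0.05.

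**Figure D5:**
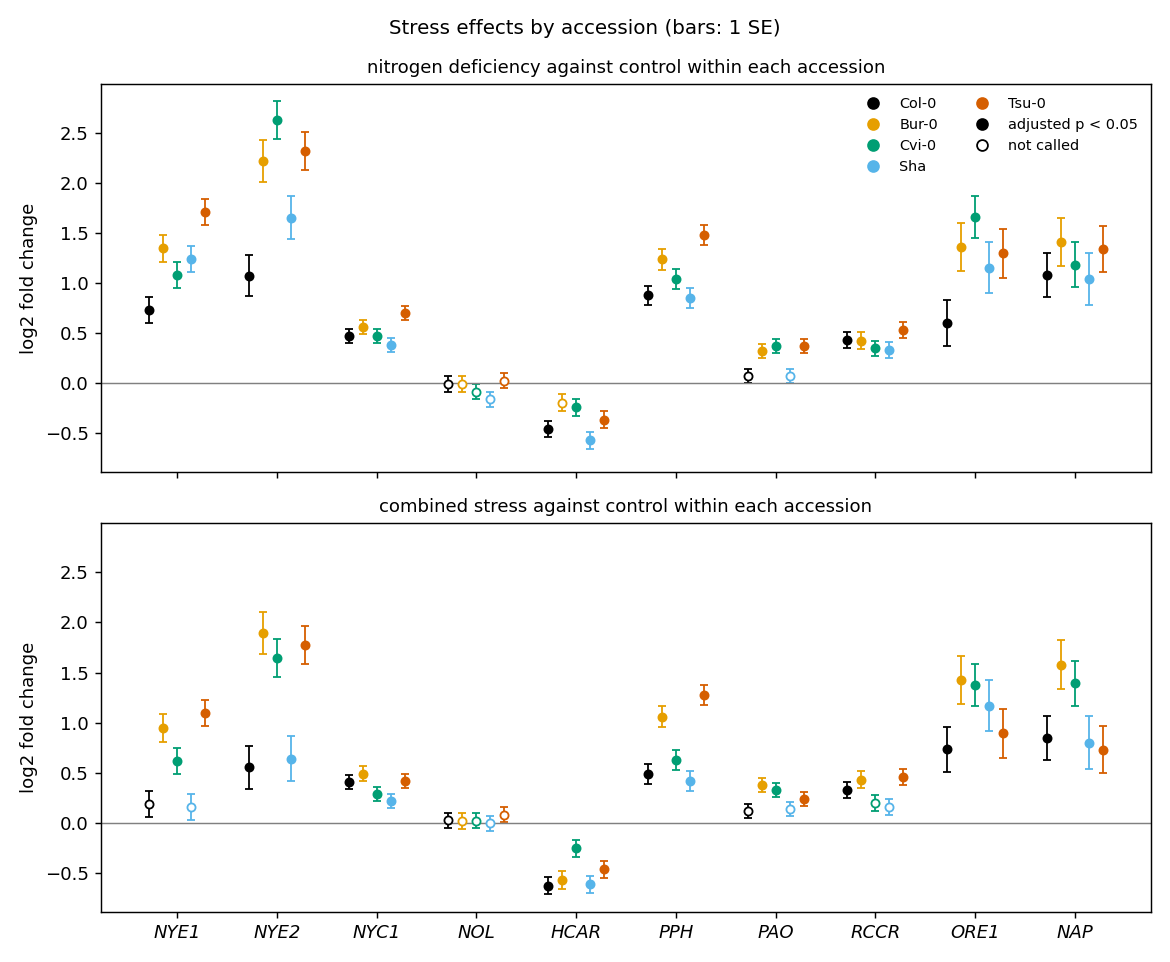
Log2 fold change against control (y axis) of the 10 members (x) in nitrogen deficiency (top) and combined stress (bottom), by accession (colour); bars are 1 SE and open points were not called at an adjusted p below 0.05. Under combined stress PPH ranges from 0.42 in Sha to 1.27 in Tsu-0, and NYE1 from 0.16 in Sha to 1.09 in Tsu-0.

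Within single accessions, nitrogen deficiency gave 42 calls out of 50 tests of members, 38 higher and 4 lower. The members called numbered 8 in Col-0 (42.5% of all genes), 8 in Bur-0 (41.5%), 9 in Cvi-0 (42.5%), 8 in Sha (38.3%) and 9 in Tsu-0 (50.8%). Combined stress gave 39 calls, with 7 members in Col-0 (31.2% of all genes), 9 in Bur-0 (32.2%), 8 in Cvi-0 (19.7%), 6 in Sha (17.6%) and 9 in Tsu-0 (37.5%). Drought gave 7 calls, with 1 member in Col-0 (6.17% of all genes), 1 in Bur-0 (3.27%), 2 in Cvi-0 (1.62%), 1 in Sha (1.72%) and 2 in Tsu-0 (5.85%). The 3 falls in drought were those of HCAR in Col-0, Bur-0 and Sha. The 4 rises were those of NYE2 and NAP in Cvi-0 and of PPH and ORE1 in Tsu-0. Without the libraries far from their groups the drought calls numbered 11, and NYE2 in Cvi-0 was no longer among them (adjusted p = 0.151).

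Levels in control also differed between accessions for 9 of 10 members, where 75.6% of genes differed, and PPH was the exception (adjusted p = 0.0907). HCAR was at 24.6 ± 3.32 CPM in Cvi-0, 23.7 ± 3.43 in Col-0, 21.1 ± 2.68 in Tsu-0, 16.2 ± 2.43 in Bur-0 and 14.6 ± 1.62 in Sha (SD, n = 6, Bur-0 n = 5), and of the neighbours in this order Tsu-0 and Bur-0 differed. PAO was at 92.5 ± 12.1 CPM in Col-0, 92.0 ± 7.74 in Cvi-0 and 86.4 ± 6.89 in Sha, and lower at 63.9 ± 3.87 in Bur-0 and 62.7 ± 6.16 in Tsu-0. Only the step from Sha to Bur-0 was larger than the spread. RCCR was highest in Col-0, at 81.6 ± 11.7 CPM, and lowest in Tsu-0, at 50.4 ± 4.21 CPM, and each of these differed from its neighbour in the order.

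ORE1 was highest in Cvi-0, at 4.33 ± 3.07 CPM, and differed there from Col-0 at 2.37 ± 1.82 CPM, while Bur-0 (1.94 ± 1.64), Tsu-0 (1.48 ± 0.844) and Sha (1.30 ± 0.806) followed without a called step. NYE1 was at 24.6 ± 2.58 CPM in Cvi-0 and 24.5 ± 7.51 in Col-0, above Sha (18.2 ± 1.89), Tsu-0 (18.1 ± 1.92) and Bur-0 (16.2 ± 2.76). The step from Col-0 to Sha was called, but not without the libraries far from their groups (adjusted p = 0.0884). NYE2 was at 2.26 ± 0.677 CPM in Tsu-0 and 2.18 ± 0.539 in Cvi-0, above Col-0 (1.52 ± 0.553), Bur-0 (1.46 ± 0.273) and Sha (1.104 ± 0.287), and the step from Cvi-0 to Col-0 was called. NAP, NYC1, NOL and PPH had no called step between neighbours, over ranges of means from 1.75 to 6.55, 88.1 to 109.4, 21.3 to 27.2 and 58.9 to 72.8 CPM.

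Over all pairs of accessions in control, 53 of 100 tests of members were called. Against Col-0, the members called numbered 7 for Bur-0 (36.8% of all genes), 3 for Cvi-0 (42.9%), 5 for Sha (35%) and 6 for Tsu-0 (33.7%). Against Bur-0 they numbered 7 for Cvi-0 (43.1%), 2 for Sha (31.8%) and 5 for Tsu-0 (29.3%). Sha and Tsu-0 each had 6 against Cvi-0 (43.9% and 45.7%), and Tsu-0 had 6 against Sha (30.8%).

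Genes that make chlorophyll moved the other way. Of 15 synthesis genes, 14 were lower in nitrogen deficiency (31.4% of all genes) and 0 higher (36.6%), with a median log2 fold change of -0.78 against 0.05 over all genes, and GUN4 was the one not called. GUN4 was scarce, at a mean of 0.414 CPM and with no count in 7 libraries, which limits its test. They included CHLI1, a subunit of magnesium chelatase (-1.16 ± 0.05), HEMA1, the first committed enzyme of tetrapyrrole synthesis (-0.97 ± 0.04), CHLM, a methyltransferase (-0.72 ± 0.04), and CHLG, the chlorophyll synthase (-0.58 ± 0.03). Under combined stress 14 were lower too (26.6% of all genes), at a median of -0.42 against 0.03 over all genes. Compared with nitrogen deficiency, 14 were higher under combined stress (19.6% of all genes), at a median of 0.33 against -0.01. Drought lowered PORA, a protochlorophyllide oxidoreductase (-0.48 ± 0.10), and none of the other synthesis genes passed the test, where 13.1% of all genes were lower. PORA was scarce too, at a mean of 1.64 CPM.

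Other genes of chlorophyll turnover did not move as a block. Of 10 tested, 3 were higher and 5 lower in nitrogen deficiency, at a median of -0.25, beside 36.6% higher and 31.4% lower among all genes. BCM2, a thylakoid protein that limits magnesium dechelation, rose (0.67 ± 0.03), as did CYP89A9, a cytochrome P450 acting on chlorophyll catabolites (0.68 ± 0.07). SGRL, the STAY-GREEN-LIKE relative of NYE1 and NYE2, fell (-0.84 ± 0.05), and so did CLD1, a dephytylase of chlorophyll turnover (-0.29 ± 0.04). The dechelatases thus split, with NYE1 and NYE2 higher and SGRL lower in the same libraries. Under combined stress 2 were higher and 4 lower (30.6% and 26.6% of all genes), and in drought BCM2 alone was called (0.19 ± 0.03).

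Of 29 other regulators of senescence and of chlorophyll breakdown genes, 28 were tested, and MYC2 was listed at 0 in every library. In nitrogen deficiency 18 were higher and 6 lower (36.6% and 31.4% of all genes), at a median of 0.32. NAC046, a NAC factor that acts on chlorophyll breakdown genes, rose by 1.96 ± 0.10, ATAF1, a NAC factor upstream of ORE1, by 0.88 ± 0.06, and the abscisic acid response factors ABF3 by 0.85 ± 0.05 and ABF2 by 0.66 ± 0.04. Under combined stress 12 were higher and 4 lower (30.6% and 26.6% of all genes), the former including ABI5 (1.24 ± 0.13), ABF3 (0.88 ± 0.05) and ATAF1 (0.61 ± 0.06). Combined stress against nitrogen deficiency had 5 higher and 12 lower (19.6% and 21.2% of all genes). The latter included NAC046 (-0.98 ± 0.09), NAC016 (-0.86 ± 0.11) and JUB1, a NAC factor that delays senescence (-1.59 ± 0.15). In drought 5 were higher and 5 lower (10.6% and 13.1% of all genes), with ABF3 (0.45 ± 0.05) and ABF2 (0.39 ± 0.04) among the former and WRKY54, which restrains senescence (-0.73 ± 0.13), among the latter. Of the regulators named, ABI5, JUB1, NAC046 and NAC016 were scarce, at means of 1.43, 1.50, 1.92 and 2.76 CPM.

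Genes used as markers of leaf senescence, or known as NAC targets, gave no common direction. Of 18, 16 were tested, and 3 were higher and 7 lower in nitrogen deficiency, at a median of -0.43, where 36.6% and 31.4% of all genes were higher and lower. SAG20 rose (1.01 ± 0.12) and SAG101 rose (0.28 ± 0.05), while the sugar transporter gene SWEET15 (-1.79 ± 0.25) and YLS3 (-0.60 ± 0.09) fell. Under combined stress 5 were higher and 8 lower (30.6% and 26.6% of all genes), with SAG113, a phosphatase gene of abscisic acid signalling, up by 0.68 ± 0.12 and FRK1 (-1.54 ± 0.21), SEN1 (-1.14 ± 0.16) and SAG21 (-0.90 ± 0.14) down. In drought 3 were higher and 6 lower (10.6% and 13.1% of all genes), with SAG13 (-1.33 ± 0.21), FRK1 (-1.29 ± 0.21), BCB (-0.97 ± 0.17) and XTH24 (-0.56 ± 0.07) among the latter. SEN1, FRK1 and SWEET15 were scarce, at means of 1.05, 1.25 and 2.90 CPM, with no count in 2, 5 and 4 libraries.

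SAG12, a cysteine protease gene much used as a marker of late leaf senescence, is described here because of its use and was named after its values were seen. It was not called in any averaged stress and had no count in 51 libraries. Cvi-0 had no count in 2 of 24 libraries, with a median of 3.44 CPM and a highest value of 129.0 CPM, while Sha had none in 17 of 24 and a highest value of 3.01 CPM. All 6 Sha W+N- libraries were at 0 for SAG12, although NYE1 rose 2.37-fold and PPH 1.80-fold in the same libraries.

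Members were compared by the shape of their treatment response, using group means of log2 CPM centred on the mean of each accession (Pearson's r over 20 groups, which share libraries and only 4 treatments, so that high values are easily reached). Between members, r was 0.98 for NYE2 and PPH, 0.96 for NYE1 and PPH and 0.96 for NYE1 and NYE2, but -0.51 for NYE1 and NOL and -0.71 for HCAR and PPH. Centring removes the differences between accessions, and several values depended on it: without it, r was -0.20 for HCAR and PPH, 0.40 for NYE1 and SVP, 0.07 for NAP and FDM3 and 0.08 for RCCR and AT3G02630. Outside the members, the genes most like NYE1 were NF-YA4 (0.99), SVP (0.99) and ATG8G (0.99), those most like NYE2 were VSR4 (0.99), TDX (0.99) and AT1G13990 (0.98), and those most like PPH were AT5G64250 (0.99), AT5G18140 (0.99) and AT5G63940 (0.99). For NYC1 they were AT1G19660 (0.98), NHX8 (0.98) and GID1C (0.98), and for RCCR they were AT3G02630, AT1G76570 and AT1G55280 (0.98 each). The closest to PAO were BAM1, G6PD6 and ARF16 (0.95 each), to ORE1 CSLG3, MUR4 and AT1G04990 (0.95 to 0.96) and to NAP FDM3, RMA2 and AT4G00780 (0.96 each). HCAR was closest to ELIP2 (0.95), VAR1 (0.94) and RPL3B (0.92), and NOL, with the least alike neighbours of the 10, to AT1G49980 (0.87), BGLU44 (0.86) and APX6 (0.85).

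Treatment held most of the variance of PPH (74.9% of its total sum of squares) and NYE1 (67.0%), whereas accession held most of that of PAO (62.3%) and HCAR (60.6%). NYE2 lay between, with 46.4% for treatment and 36.9% for accession. For NOL accession held 44.9%, treatment 9.03% and the spread between libraries 42.3%.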

How the data were processed

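RNA-seq counts of rosettes were used. The authors deposited raw counts (whole numbers, not normalized) for each gene. Per the labels' protocols, RNA came from the RNeasy Plant Mini kit and libraries from the TruSeq Stranded mRNA kit, and reads were handled with HISAT2 and Trimmomatic 0.36, tools listed by the submitters' processing notes. For strand setting, counter and build, the answer is not given in the sources used here. Groups came from the sample labels. Counts were filtered (filterByExpr, 20025 of 32833 genes) and normalized by TMM, and every library entered the edgeR 4.0.16 quasi-likelihood model (R 4.3.3), whose terms were group and experiment code. Averaged contrasts weight the 5 accessions equally; Benjamini-Hochberg adjustment ran over all tested genes, and an adjusted p below 0.05 was called. Differences between accessions in a stress effect were F tests. The fit was tested on simulated data. CPM is scaled by TMM library sizes; correlations and variance shares took log2 CPM after adding a prior count (2).

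Symbols, transcript lengths (the longest transcript) and overlaps came from the TAIR10.1 annotation, in which 32548 of the IDs matched. Reads of overlapping genes cannot be assigned with certainty, and 1 set of gene models served every accession. The members and gene lists were chosen with earlier results of these data known. Named beside the members were up to 4 genes of lowest adjusted p per list and comparison, and for each member the 3 genes with the most similar pattern among 13809 with a mean of at least 5 CPM; GUN4, MYC2 and SAG12 were named after their values were seen. Libraries of a group differed by more than sampling noise (lowest mean chi-square per gene 3.07). Alternatives were RLE size factors, no filter, no organelle genes, no code term, single codes, a block for replicate letter, each letter left out, each accession alone, limma 3.58.1 (voom) and DESeq2 1.42.0. Leaving out the 4 libraries far from their groups, or the library highest in flower markers, was added after the data were seen.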

Additional observations from a re-analysis of the deposited data

Results flagged for a closer look

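Differences between accessions in the response to nitrogen deficiency passed the test for NYE1 (adjusted p = 0.000722), NYE2 (0.000107), PPH (0.00105) and PAO (0.0115), and in the response to combined stress for NYE1 (4.00e-05), NYE2 (0.000119) and PPH (5.68e-07).

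Of the 200 sets formed by a member in a group of 5 or 6 libraries, 13 held a library whose gap to its neighbour was large for the range of the set; chance alone gives about 1 such set in 20. Of these, 3 came from the library Tsu-0 W+N- d, with NYE1 at 94.2 CPM (next library 56.4), NYC1 at 269.0 CPM (171.0) and PAO at 100.5 CPM (80.9). In Sha W-N- a, PPH was at 109.1 CPM and NAP at 6.10 CPM, both highest in their set. The highest library was also far for NYE1 in Cvi-0 W-N+ (33.4 CPM), for PPH in Cvi-0 W-N+ (90.1 CPM) and Tsu-0 W-N+ (101.7 CPM), for NOL in Bur-0 W-N- (31.0 CPM) and for RCCR in Bur-0 W-N- (116.2 CPM). The lowest library was far for NOL in Bur-0 W-N+ (24.0 CPM), PPH in Bur-0 W-N- (103.5 CPM) and PAO in Cvi-0 W+N+ (76.9 CPM). Without the libraries far from their groups, the rise in nitrogen deficiency in Tsu-0 was 1.53 for NYE1 and 0.59 for NYC1 on the log2 scale.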

How the results depend on the processing

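No called log2 fold change of a member turned its sign under an alternative; signs were not compared where neither fit made a call. Of 1020 values of averaged comparisons, 987 kept their call, 26 lost it and 7 gained it; within accessions and pairs 3987 of 4250 kept it. Without the code term, members called in drought numbered 5 and within accessions 0 (14 of 50 at an unadjusted p under 0.05; 7 with the code term by edgeR), and genes differing between accessions numbered 62 in drought and 1788 in combined stress. With P3ID33 alone, members called numbered 5 in drought, 1 within accessions and 1 for the accession difference in nitrogen deficiency; genes called numbered 2318 in drought, 4848 for combined against nitrogen deficiency, 3007 for non-additivity, and 35 and 857 for accession differences in drought and nitrogen deficiency. With P3ID34 alone, 5 members were called in drought and 4 within accessions; genes called numbered 2456 in drought, 6074 for combined against drought, 3658 for non-additivity, and 30, 1358 and 922 for accession differences in drought, nitrogen deficiency and combined stress. Each code alone has fewer libraries. DESeq2 gave 11 member calls in drought within accessions and 227 genes that differed between accessions in drought; limma voom gave 5 members that differed in combined stress. Drought calls within accessions numbered 11 without the libraries far from their groups and 4 with each accession fitted alone. Leaving out a replicate letter gave 3 to 7 of these calls, and 56 to 90, 1955 to 3626 and 1612 to 2103 genes that differed between accessions in drought, nitrogen deficiency and combined stress. Deviations of same-lettered libraries had a median r of 0.00324, with 21 of 87 pairs over 0.1. Letters were not used to pair samples, but a pairing that leaves no shared deviation would not show here. With a replicate block the member calls were 8 in drought, 9 in nitrogen deficiency and 9 in combined stress, and 8 in drought within accessions. The causes of these shifts were not tested. Depth limits ORE1, NYE2 and NAP most.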
